A study of Mus musculus with 4 samples.

Results

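The 10 genes described here encode the contents of secondary and tertiary neutrophil granules and proteins of mature neutrophils: Ltf, Camp, Ngp, Lcn2, Mmp8, Mmp9, S100a8, S100a9, Cxcr2 and Retnlg. They were taken by name from the 55399 genes of the deposited count table. All 10 matched 1 identifier each, and all 10 passed the low-count filter that left 16393 genes for testing. Bulk RNA-seq had been made from mouse bone marrow cells labelled Lsk, a name usually given to lineage-negative cells that carry Sca-1 and Kit. There were 4 libraries, 2 from Ppm1bfl/fl mice, in which Ppm1b is flanked by loxP sites, and 2 labelled Ppm1bCKO, a conditional knockout of this serine/threonine phosphatase gene. The Cre driver, the strain, the age and the sex of the mice, and whether the 2 libraries of a genotype came from separate mice, are not stated in the labels. The p-values therefore reflect the spread between these libraries alone, which may be technical. The question addressed is whether transcripts of the late neutrophil programme differ with the Ppm1b genotype.

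Neutrophils build their granules in waves as they mature in the marrow. Primary granules, with myeloperoxidase and serine proteases, form at the promyelocyte stage. Secondary (specific) granules with lactoferrin, cathelicidin and lipocalin 2 follow at the myelocyte and metamyelocyte stages, and tertiary (gelatinase) granules with MMP9 come last. Transcripts of these genes are switched on in turn by transcription factors that include C/EBPε. Resting stem and multipotent progenitor cells are not known for making granule proteins of the late stages.

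Ppm1b itself, which checks the labels, was not lower in the libraries labelled Ppm1bCKO. Levels are given as CPM, counts scaled to a common library size and normalised by the trimmed mean of M-values (TMM). Ppm1b stood at 80.8 and 82.5 CPM in Ppm1bfl/fl against 84.3 and 121 CPM in Ppm1bCKO (log2 fold change 0.33 ± 0.20, edgeR adjusted p = 0.717). A count summed over all exons cannot tell whether 1 exon is missing. The direction of every difference given here rests on the labels. Total counts ran from 22393973 to 30045382 per library, and a count of 0 would allow 0.0995 to 0.132 CPM. In the Ppm1bCKO pair, replicate 2 held relatively more reads of short genes and fewer of long genes than replicate 1, which touches several of the values below.

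All 10 genes were detected well above the floor in every library. They took 0.474% of all counts in Ppm1bfl/fl replicate 1 (95% Wilson interval 0.471 to 0.476) and 0.450% in replicate 2 (0.448 to 0.452). In Ppm1bCKO replicate 1 they took 0.471% (0.469 to 0.474) and in replicate 2 0.520% (0.517 to 0.523). These intervals hold counting error alone, as reads without molecular identifiers can be copies of 1 molecule. The summed level of the 10 genes was 8.21 to 14.7 times that of 10 markers of Lsk and multipotent progenitor cells, among them Kit, Cd34 and Flt3, which summed to 370 to 564 CPM, lowest in Ppm1bCKO replicate 2. Of these 10 markers 9 had a negative log2 fold change (median -0.24), but without Ppm1bfl/fl replicate 1 there were 9 positive (median 0.18), so their direction rests on that library. The defining neutrophil surface gene Ly6g, chosen after its values were seen, was detected at 11.9 to 19.1 CPM in the 4 libraries. In bulk RNA, more cells of a type and more RNA per cell cannot be told apart.

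Per length, the levels of the 10 genes spanned a wide range. On the scale of CPM per kilobase of counted exon, averaged over the 4 libraries, S100a9 was highest at 2516, followed by Ngp at 1024, S100a8 at 738 and Retnlg at 561. Camp stood at 271, Ltf at 180 and Lcn2 at 98.5. The proteinase genes were lower, Mmp9 at 47.8 and Mmp8 at 45.2, and the receptor gene Cxcr2 was lowest at 9.25. Neighbours in this order did not overlap over the 4 libraries except for S100a8 and Retnlg, and for Mmp9 and Mmp8. S100a9 and Ngp alone made up 52.8% to 54.1% of the summed CPM of the 10 genes in each library.

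**Figure D1:**
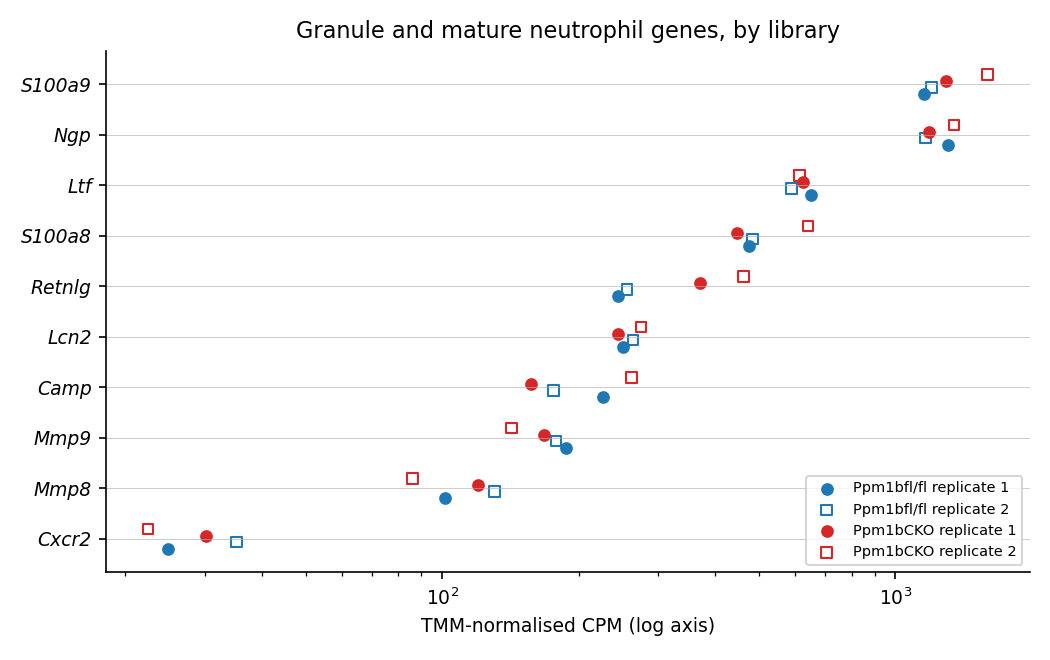
TMM-normalised CPM (log axis) of each of the 10 genes in the 4 libraries. Points are single libraries, blue for Ppm1bfl/fl and red for Ppm1bCKO, filled circles for replicate 1 and open squares for replicate 2. Retnlg shows both Ppm1bCKO libraries, at 370 and 462 CPM, above both Ppm1bfl/fl libraries, at 244 and 256 CPM.

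None of the 10 genes passed the test between the genotypes in edgeR's quasi-likelihood fit at an adjusted p of 0.05. Over all tested genes 0.372% passed (61 of 16393). At an unadjusted p under 0.05 there was 1 of the 10, Retnlg, where 6.44% of all genes had such a p. Limma-voom called 0 of the 10, and DESeq2 called 1, again Retnlg, where it called 1.24% of the genes it tested. The median log2 fold change (Ppm1bCKO over Ppm1bfl/fl) of the 10 genes was 0.023, with 6 positive and 4 negative, against a median of -0.0032 over all tested genes. Without Ppm1bCKO replicate 2 it was -0.029 with 5 positive, and without Ppm1bCKO replicate 1 and Ppm1bfl/fl replicate 1 in turn it was 0.11 and 0.091. No overlap between the genotypes was seen for 3 of the 10 genes, S100a9 and Retnlg (higher in Ppm1bCKO) and Mmp9 (lower), where 41.1% of all tested genes had none. For the 9 genes other than Retnlg the 95% intervals of the fold change included 1 and lay between 0.601-fold and 1.68-fold, so changes within those bounds were not resolved with these libraries.

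The summed level of the 10 genes was 4629 and 4482 CPM in Ppm1bfl/fl and 4643 and 5449 CPM in Ppm1bCKO. Both Ppm1bCKO libraries were thus above both others, replicate 1 by less than the Ppm1bfl/fl libraries differed from each other. The means were 4556 ± 103 and 5046 ± 570 CPM (SD, n = 2), a ratio of 1.11. A two-sided exact permutation test gave p = 0.333, the smallest p that 2 against 2 libraries can give. Without Ppm1bCKO replicate 2 the log2 ratio of the sums went from 0.15 to 0.027.

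The secondary granule genes Ltf, Ngp and Lcn2 stayed within a narrow band. Ltf encodes lactoferrin, the iron-binding protein that defines these granules (chromosome 9, 111019271 to 111042767, mm10). It stood at 652 and 590 CPM in Ppm1bfl/fl against 624 and 614 CPM in Ppm1bCKO, and both Ppm1bCKO libraries lay between the others (log2 fold change -0.0052 ± 0.18, edgeR adjusted p = 0.994). Ngp, which encodes neutrophilic granule protein, a relative of the cathelicidins and cystatins (chromosome 9, 110419747 to 110423012), stood at 1307 and 1166 CPM in Ppm1bfl/fl against 1188 and 1347 CPM in Ppm1bCKO. The groups overlapped (log2 fold change 0.036 ± 0.20, edgeR adjusted p = 0.961). Lcn2 encodes lipocalin 2, which binds bacterial siderophores (chromosome 2, 32384633 to 32388252). Its values of 251 and 264 CPM in Ppm1bfl/fl and 244 and 274 CPM in Ppm1bCKO also overlapped (0.0098 ± 0.16, edgeR adjusted p = 0.987). For these 3 genes the replicates of a genotype differed by more than the genotype means did.

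Camp and Mmp8, also of secondary granules, varied more, and in opposite ways between the replicates. Camp, the single mouse cathelicidin gene, encodes the precursor of the antimicrobial peptide CRAMP (chromosome 9, 109847379 to 109849617). It stood at 226 and 176 CPM in Ppm1bfl/fl against 157 and 261 CPM in Ppm1bCKO, so that the Ppm1bCKO libraries were the lowest and the highest of the 4 (log2 fold change 0.057 ± 0.25, edgeR adjusted p = 0.953). Mmp8 encodes neutrophil collagenase (chromosome 9, 7558456 to 7568485). It stood at 102 and 130 CPM in Ppm1bfl/fl against 120 and 86.2 CPM in Ppm1bCKO, lowest where Camp was highest (-0.17 ± 0.21, edgeR adjusted p = 0.811). Camp, Ngp and Ltf lie in this order within a stretch of chromosome 9, with gaps of 570 kb and 596 kb between neighbours that hold 22 and 29 other genes of the table.

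Mmp9 and Cxcr2, genes of the last stages, had negative log2 fold changes. Mmp9 encodes gelatinase B of tertiary granules (chromosome 2, 164940780 to 164955850). It stood at 187 and 178 CPM in Ppm1bfl/fl against 168 and 142 CPM in Ppm1bCKO, and did not overlap between the genotypes (-0.24 ± 0.17, edgeR adjusted p = 0.723). Cxcr2 encodes the receptor for CXC chemokines through which mature neutrophils leave the marrow (chromosome 1, 74153989 to 74161246). With 533 to 1063 counts per library it was the least abundant of the 10, at 24.9 and 35.2 CPM in Ppm1bfl/fl and 30.1 and 22.5 CPM in Ppm1bCKO, and the genotypes overlapped (-0.19 ± 0.24, edgeR adjusted p = 0.806). Cxcr2 and Mmp8 had the same order of libraries, highest in Ppm1bfl/fl replicate 2 and lowest in Ppm1bCKO replicate 2. S100a9 and Retnlg also shared an order of libraries, as did S100a8 and Lcn2, so this is not particular to Mmp8 and Cxcr2. The promoter windows of Mmp8 and Cxcr2 are printed for their shared order, and shared regulation was not tested. Each runs from 250 bases before to 50 after the gene start (RefSeq, GRCm38.p6, plus strand chr9:7558179-7558478 for Mmp8 and plus strand chr1:74153744-74154043 for Cxcr2). Capitals mark matches on either strand to TTNNGNAA, a core of C/EBP sites, GAGGAA, a core of PU.1 sites, and TATAAA, the TATA box.
Mmp8: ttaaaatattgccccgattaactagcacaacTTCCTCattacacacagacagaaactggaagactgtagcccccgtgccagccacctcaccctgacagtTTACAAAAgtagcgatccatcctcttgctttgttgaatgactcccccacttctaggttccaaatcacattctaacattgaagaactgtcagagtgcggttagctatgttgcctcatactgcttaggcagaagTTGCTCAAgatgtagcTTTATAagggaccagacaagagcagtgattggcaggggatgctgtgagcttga
Cxcr2: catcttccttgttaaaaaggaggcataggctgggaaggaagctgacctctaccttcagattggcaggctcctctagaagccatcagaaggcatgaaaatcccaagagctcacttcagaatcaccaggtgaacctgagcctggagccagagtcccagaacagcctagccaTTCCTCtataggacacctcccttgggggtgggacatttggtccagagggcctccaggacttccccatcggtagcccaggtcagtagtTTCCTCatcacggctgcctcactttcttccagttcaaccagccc

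Mmp8 held 2 matches to the C/EBP core, 1 to the PU.1 core and 1 to the TATA box, all of them on the minus strand. Its PU.1 match extends to the longer PU.1 motif GAGGAAGT. Cxcr2 held 2 matches to the PU.1 core and none to the other motifs. A match describes letters in the window and does not show binding.

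S100a8 and S100a9 encode the subunits of calprotectin, the calcium- and zinc-binding protein that fills the neutrophil cytosol. S100a8 (chromosome 3, 90668978 to 90670035) stood at 476 and 484 CPM in Ppm1bfl/fl against 448 and 642 CPM in Ppm1bCKO. Ppm1bCKO replicate 1 was thus the lowest and replicate 2 the highest of the 4 libraries (log2 fold change 0.18 ± 0.21, edgeR adjusted p = 0.797). S100a9 (chromosome 3, 90692632 to 90695721) stood at 1159 and 1203 CPM in Ppm1bfl/fl against 1294 and 1598 CPM in Ppm1bCKO, which did not overlap (0.29 ± 0.20, edgeR adjusted p = 0.723). The ratio of S100a9 to S100a8 counts was 2.43, 2.49 and 2.49 in Ppm1bfl/fl replicates 1 and 2 and Ppm1bCKO replicate 2, and 2.89 in Ppm1bCKO replicate 1. Without Ppm1bCKO replicate 1, which leaves 1 Ppm1bCKO library against a close Ppm1bfl/fl pair, edgeR called S100a8 (0.42, adjusted p = 0.0272) and S100a9 (0.44, adjusted p = 0.0194) as well as Retnlg, 3 of the 10, where it called 19.4% of all genes. Without Ppm1bCKO replicate 2, S100a8 turned to -0.10 and S100a9 to 0.13, and neither was called.

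The S100a8 and S100a9 genes lie 22.6 kb apart on opposite strands, with 0 other genes of the table between them. Their promoter windows are shown because this neighbouring pair makes up calprotectin and both were highest in Ppm1bCKO replicate 2 (RefSeq, GRCm38.p6, plus strand chr3:90668821-90669120 and minus strand chr3:90695672-90695971, capitals as above).
S100a8: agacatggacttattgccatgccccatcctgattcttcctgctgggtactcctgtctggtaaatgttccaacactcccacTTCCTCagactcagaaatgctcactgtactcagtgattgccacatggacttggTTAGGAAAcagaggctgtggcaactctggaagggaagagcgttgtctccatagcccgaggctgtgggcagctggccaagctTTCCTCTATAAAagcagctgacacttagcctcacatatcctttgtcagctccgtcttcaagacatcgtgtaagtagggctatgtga
S100a9: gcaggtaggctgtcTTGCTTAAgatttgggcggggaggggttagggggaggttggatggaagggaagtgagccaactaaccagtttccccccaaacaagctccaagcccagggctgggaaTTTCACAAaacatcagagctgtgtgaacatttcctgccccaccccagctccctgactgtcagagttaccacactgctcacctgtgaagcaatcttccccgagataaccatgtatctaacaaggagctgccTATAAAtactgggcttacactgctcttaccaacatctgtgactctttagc

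Both held the TATA box motif, S100a8 at 30 bases before the RefSeq start and S100a9 with its first base at the start itself. For S100a8 this RefSeq start lies inside the gene span given above, and so does the motif. S100a8 also held 1 match to the C/EBP core and 2 to the PU.1 core, of which 1 extends to the longer PU.1 motif GAGGAAGT, and S100a9 held 2 matches to the C/EBP core. RefSeq windows were at hand for 9 of the 10 genes, the exception being Mmp9. The C/EBP core occurred in 7 of the 9 windows, where 40.7% of 32851 promoter windows of this length held it, and the stricter TTGCGNAA, which it includes, in 0 of the 9 (0.798% of all). The PU.1 core occurred in 5 of the 9 (28.3% of all), GAGGAAGT in 2 of the 9 (3.20% of all), and the TATA box motif in 3 of the 9 (13.6% of all). No C/EBP core in the Camp and Cxcr2 windows says only that these letters are missing there.

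Retnlg had the largest difference of the 10 genes and was not called. It encodes resistin-like gamma, a small secreted protein whose transcript marks mature mouse neutrophils (chromosome 16, 48872621 to 48874496). Its CPM values were 244 and 256 in Ppm1bfl/fl against 370 and 462 in Ppm1bCKO. Both Ppm1bCKO libraries were higher than both others, and the means of 250 ± 8.46 and 416 ± 64.8 CPM (SD, n = 2) differed by more than the replicates of either genotype did. The log2 fold change was 0.73 ± 0.18, or 1.66-fold with a 95% interval of 1.25 to 2.22 (edgeR unadjusted p = 0.00335, adjusted p = 0.324). The window before its start follows, as the gene with the largest difference (RefSeq, GRCm38.p6, plus strand chr16:48872358-48872657, capitals as above).
Retnlg: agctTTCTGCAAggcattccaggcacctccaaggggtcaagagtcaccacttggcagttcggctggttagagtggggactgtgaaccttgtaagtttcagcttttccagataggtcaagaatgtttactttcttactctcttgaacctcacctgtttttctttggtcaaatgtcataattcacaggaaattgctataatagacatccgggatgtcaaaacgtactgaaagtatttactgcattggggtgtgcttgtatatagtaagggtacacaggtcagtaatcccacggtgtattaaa

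Retnlg held 1 match to the C/EBP core and none to the PU.1 core or the TATA box motif. The gene's call depended on the tool and the filter. DESeq2 called it (0.73, adjusted p = 0.0275), and so did edgeR without a low-count filter (adjusted p = 0.0237), where 1.10% of genes were called. Over the edgeR alternatives its log2 fold change ran from 0.57 to 0.88, the extremes coming without Ppm1bCKO replicate 2 and without Ppm1bCKO replicate 1. Without Ppm1bfl/fl replicate 1 and replicate 2 in turn it was 0.70 and 0.77. With immunoglobulin genes left out it was 0.73, and the adjusted p rose to 0.559 in edgeR. The other resistin-like genes, Retn, Retnla and Retnlb, did not pass the low-count filter and stood at 0 to 0.150 CPM. The resistin-like transcripts in these libraries were therefore nearly all Retnlg.

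**Figure D2:**
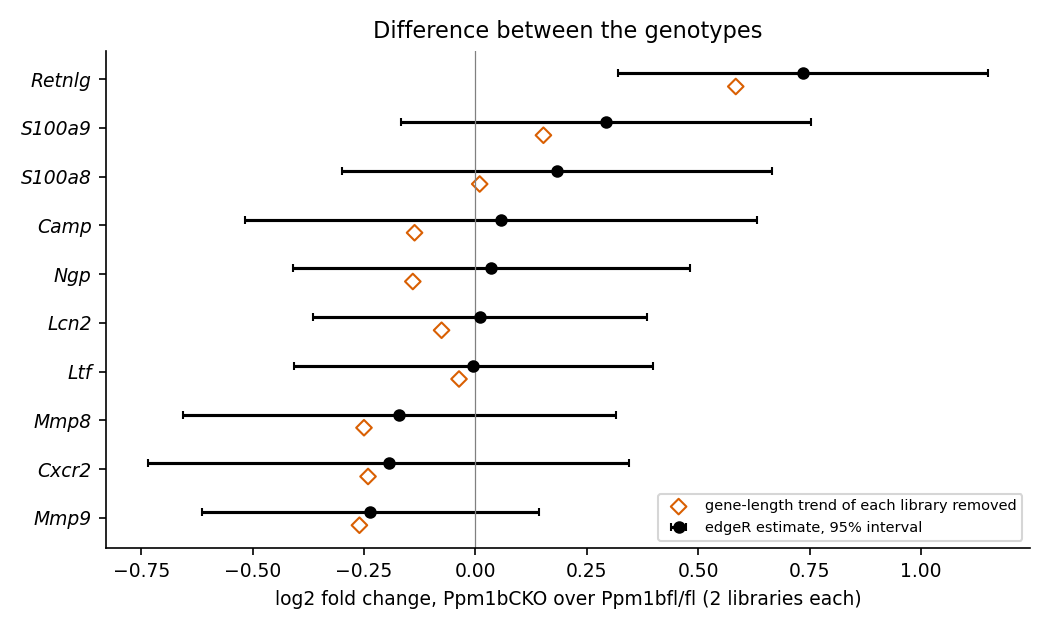
Log2 fold change of each gene, Ppm1bCKO over Ppm1bfl/fl (2 libraries each). Black points and bars are edgeR estimates with 95% intervals, and orange diamonds are estimates after the trend of each library with gene length was removed. Only the interval of Retnlg, 0.32 to 1.15, lies to 1 side of 0, and the diamonds of Camp, Ngp and Lcn2 lie on the other side of 0 from their points.

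The order of the 10 log2 fold changes followed gene length. The 4 genes with under 1000 bases of counted exon, Retnlg, S100a9, S100a8 and Camp, had the highest values, and the 3 with over 3000 bases, Ltf, Mmp9 and Cxcr2, were all negative. Across the 10 genes Spearman's rho between length and log2 fold change was -0.93, a description over genes that share the same 4 libraries. Over 8528 tested genes with an average log2 CPM of at least 4 it was -0.49, so the relation was not confined to neutrophil genes. Between the Ppm1bCKO replicates (replicate 2 over 1) rho was -0.72 over the 10 genes and -0.64 over the 8528. Between the Ppm1bfl/fl replicates it was 0.042 and -0.11.

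In the same genes, the median log2 ratio of Ppm1bCKO replicate 2 over 1 was 0.52 for lengths up to 1000 bases (334 genes), 0.49 up to 2000, 0.26 up to 3000 and 0.081 up to 5000, and it was -0.20 for longer genes. S100a8 at 0.52 was at the median of its class, and Camp at 0.73 was above it. The other 8 genes were below the medians of their classes, Retnlg at 0.32, S100a9 at 0.30, Ngp at 0.18, Lcn2 at 0.17 and Ltf at -0.024. Mmp8 at -0.48, Cxcr2 at -0.42 and Mmp9 at -0.24 were furthest below. Both Mmp8 and Cxcr2 had differed between the Ppm1bfl/fl replicates too, by 0.36 and 0.50, with replicate 2 higher.

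**Figure D3:**
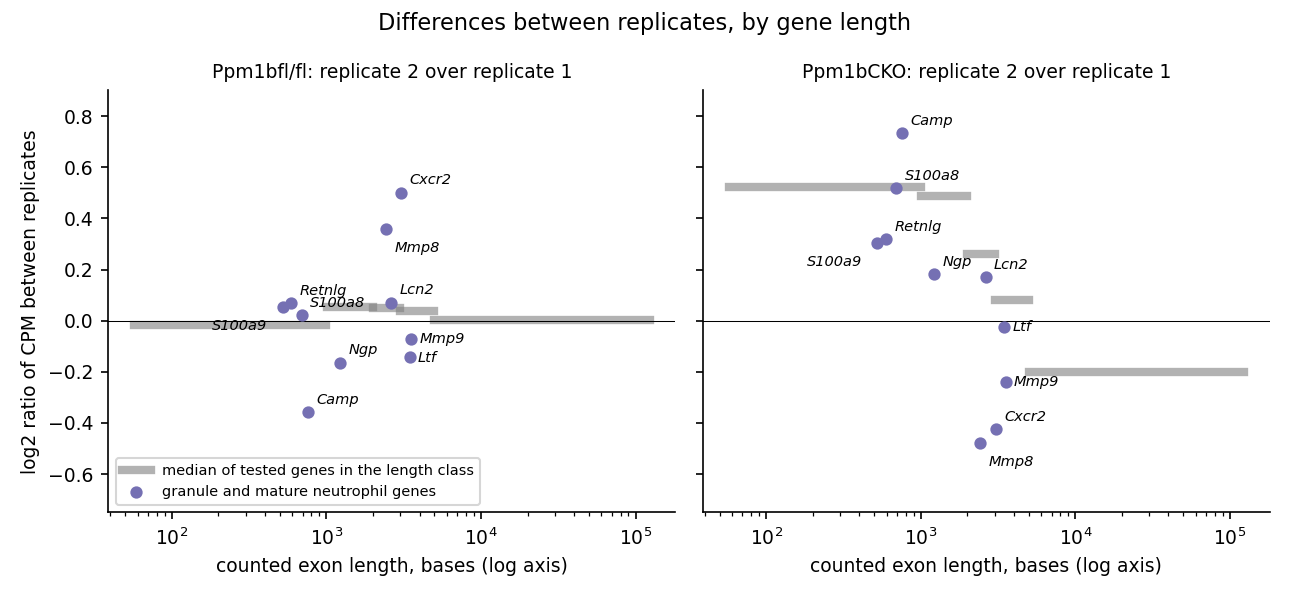
Log2 ratio of CPM between the replicates of each genotype against counted exon length (log axis). Points are the 10 genes, and grey bars are medians of tested genes of an average log2 CPM of at least 4 in 5 length classes, drawn from the shortest to the longest gene of each class. In Ppm1bCKO the bars fall from 0.52 to -0.20 with length, whereas in Ppm1bfl/fl they stay between -0.016 and 0.052.

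The trend of each library with gene length was then removed, an alternative added once the values were known. In that fit 3 of the 10 log2 fold changes were positive and 7 negative, with a median of -0.11 and 0 called. S100a8 went from 0.18 to 0.0094 and S100a9 from 0.29 to 0.15. Camp, Ngp and Lcn2 turned to -0.14, -0.14 and -0.076. Retnlg stayed the highest at 0.58 (edgeR unadjusted p = 0.00169, adjusted p = 0.208), with 254 and 264 CPM in Ppm1bfl/fl and 389 in each Ppm1bCKO library. The log2 ratio of the summed level fell from 0.15 to 0.014. A difference between the genotypes that goes with length would be removed as well, and the cause of the trend was not tested.

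Of 5 further lists of neutrophil genes (secondary and tertiary granules, receptors and late maturation, primary granules, regulators and NADPH oxidase), no gene was called by edgeR, limma-voom or DESeq2 over all libraries. Without Ppm1bCKO replicate 1, where 19.4% of all genes were called, edgeR called 5 of 25, 7 of 30, 2 of 13, 1 of 12 and 1 of 6 of them. Of 25 further secondary and tertiary granule genes, 15 had a positive log2 fold change, with a median of 0.056 and 1 at an unadjusted p under 0.05. With the length trend removed 12 were positive, and without Ppm1bCKO replicate 2 the median was 0.034 with 14 positive. Lyz2, which encodes lysozyme, was the most abundant at 1996 and 2266 CPM in Ppm1bfl/fl and 2202 and 2620 CPM in Ppm1bCKO (0.18 ± 0.21). Chil3, for a chitinase-like lectin, ran from 303 to 442 CPM over the 4 libraries and overlapped between the genotypes (0.26 ± 0.21). Of 30 receptor and late maturation genes 25 were positive (median 0.19, 4 at an unadjusted p under 0.05), or 21 with a median of 0.091 once the length trend was removed. Their median was 0.11 with 23 positive without Ppm1bCKO replicate 2. Among them Cxcr4, the receptor that holds neutrophils and progenitors in the marrow, stood at 266 and 290 CPM in Ppm1bfl/fl against 345 and 385 CPM in Ppm1bCKO (0.39 ± 0.17, edgeR adjusted p = 0.717). Cxcr4 has 1808 bases of counted exon. Tested genes of 1000 to 2000 bases, with an average log2 CPM of at least 4, had a median log2 fold change of 0.30. Itgb2, for the β2 integrin chain, had 0.039 ± 0.17.

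Primary granule genes, which precede these in maturation, had 10 of 13 positive log2 fold changes (median 0.12, 0 at an unadjusted p under 0.05), or 5 of 13 with the length trend removed. Their median was 0.018 without Ppm1bCKO replicate 2, again with 10 positive. Elane, for neutrophil elastase, stood at 955 and 943 CPM in Ppm1bfl/fl against 993 and 1073 CPM in Ppm1bCKO (0.12 ± 0.18). Mpo, for myeloperoxidase, had -0.093 ± 0.22. The summed level of the 10 late genes was 0.539 and 0.551 of that of the 13 primary granule genes in Ppm1bfl/fl, and 0.549 and 0.629 in Ppm1bCKO. Ppm1bCKO replicate 1 lay between the Ppm1bfl/fl libraries, and replicate 2 alone was higher.

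Of the 6 NADPH oxidase genes, whose products make the respiratory burst, 5 were positive (median 0.14, 0 at an unadjusted p under 0.05), with a median of 0.092 without Ppm1bfl/fl replicate 2. Cybb, for the catalytic subunit and also among the granule genes, was at -0.0011 ± 0.19 and Rac2, for the GTPase that activates it, at 0.12 ± 0.18. Of 12 transcription regulators of granulocytes 6 were positive (median -0.0040, 1 at an unadjusted p under 0.05), with Spi1, which encodes PU.1, at 0.11 ± 0.18 and Irf8 at 0.14 ± 0.17. For the regulators the sign of the median rests on single libraries: it ran from -0.069 with 3 positive without Ppm1bCKO replicate 2 to 0.065 with 8 positive without Ppm1bCKO replicate 1, and was 0.040 without Ppm1bfl/fl replicate 1 and -0.032 without Ppm1bfl/fl replicate 2. The regulator at an unadjusted p under 0.05 was Cebpe, for C/EBPε, chosen after its values were seen. Cebpe stood at 32.7 and 31.6 CPM in Ppm1bfl/fl against 38.5 and 61.0 CPM in Ppm1bCKO (0.63 ± 0.23, edgeR adjusted p = 0.717). The genotypes did not overlap, as for 41.1% of all tested genes. Cebpe has 1241 bases of counted exon. Tested genes of 1000 to 2000 bases, with an average log2 CPM of at least 4, had a median log2 fold change of 0.30.

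A further list held inhibitors, chemokines and receptors, not all of them partners of the 10 gene products. Of its 13 genes 11 were tested, and 4 were positive and 7 negative (median -0.14, 0 called by edgeR or limma-voom, 2 at an unadjusted edgeR p under 0.05). Without Ppm1bfl/fl replicate 1 the list turned to 7 positive and 4 negative (median 0.12), and without Ppm1bfl/fl replicate 2 and Ppm1bCKO replicate 2 its median was -0.25 each. EdgeR called 1 of the 11 without a low-count filter, 2 without Ppm1bCKO replicate 1, and 1 each without Ppm1bCKO replicate 2 (0.547% of all genes called) and without Ppm1bfl/fl replicate 2 (1.25%). Cxcl2, a ligand of CXCR2, stood at 17.8 and 21.3 CPM in Ppm1bfl/fl against 24.4 and 40.3 CPM in Ppm1bCKO (0.73 ± 0.26, edgeR adjusted p = 0.707). Lrp1, for a scavenger receptor that takes up MMP9 complexes, stood at 190 and 173 CPM and at 108 and 60.5 CPM (-1.11 ± 0.26, edgeR adjusted p = 0.266) and was called by DESeq2. Timp2, an inhibitor of metalloproteinases, had -0.14 ± 0.18. The chemokine gene Cxcl12 stood at 164 and 81.7 CPM in Ppm1bfl/fl against 90.4 and 88.0 CPM in Ppm1bCKO, and the genotypes overlapped (-0.46 ± 0.29). Lrp1 has 17717 bases of counted exon. Tested genes of over 5000 bases, with an average log2 CPM of at least 4, had a median log2 fold change of -0.092. With the length trend removed 3 of the 11 were positive and 8 negative (median -0.21), with 0 called. A replicate block, with 207 genes called in all, called 1 of the 11. With no low-count filter 1.10% of all genes were called. The share of all genes called without Ppm1bCKO replicate 1, given above, was far higher than with all libraries.

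Markers of some other marrow cells differed between the libraries by more than the summed level of the 10 genes did. The 8 eosinophil markers summed to 3006 and 3318 CPM in Ppm1bfl/fl and to 4530 and 7952 CPM in Ppm1bCKO, 7 of 8 with a positive log2 fold change, with Prg2, for eosinophil major basic protein, the most abundant. The 8 B cell markers summed to 188 CPM in each Ppm1bfl/fl library and to 281 and 583 CPM in Ppm1bCKO, 8 of 8 positive. The 10 macrophage markers summed to 731 and 766 CPM in Ppm1bfl/fl and to 431 and 545 CPM in Ppm1bCKO, 10 of 10 negative. Monocyte markers, which share genes of the myeloid lineage with neutrophils, summed to 2786 to 3606 CPM, lowest in Ppm1bCKO replicate 2, and 3 of 8 were positive. Plasma cell markers summed to 2805 and 1686 CPM in Ppm1bfl/fl against 765 and 1021 CPM in Ppm1bCKO, 7 of 8 negative, and plasmacytoid dendritic cell markers to 192 and 164 CPM against 259 and 307 CPM, 6 of 6 positive. Erythroid markers ran from 8925 to 18174 CPM and overlapped, and 7 of 9 were positive (4 without Ppm1bfl/fl replicate 1). No marker was at 0 in all libraries. In the main edgeR fit over all libraries, and in limma-voom, 0 of the markers in these 7 lists were called. DESeq2, which called 1.24% of all genes it tested, called 5 eosinophil, 5 B cell, 4 macrophage, 3 plasmacytoid dendritic cell and 2 plasma cell markers. At an unadjusted edgeR p under 0.05, where 6.44% of all genes lay, there were 5, 8, 5, 4 and 5 in the same order. Of the monocyte markers there was 1, and of the erythroid 0. EdgeR without the low-count filter (1.10% of all genes called) called 5, 6, 4, 4 and 2 in that order, and 1 monocyte marker. Without Ppm1bCKO replicate 1 it called 6, 8, 5, 3 and 3, with 3 monocyte and 1 erythroid markers, where 19.4% of all genes were called. Without Ppm1bCKO replicate 2 the counts were 1, 1, 6, 1 and 0, without Ppm1bfl/fl replicate 1 they were 0, 4, 0, 3 and 1 (0.856% of all genes called), and without Ppm1bfl/fl replicate 2 they were 3, 5, 1, 1 and 2. With the length trend removed, edgeR called 2 macrophage markers and 1 plasmacytoid dendritic cell marker of these lists (55 of 16393 genes called). A replicate block also called markers, as given below. The calls of these markers therefore depended on the filter, the tool, the model and the libraries used. Their part in the values of the 10 genes was not tested.

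**Figure D4:**
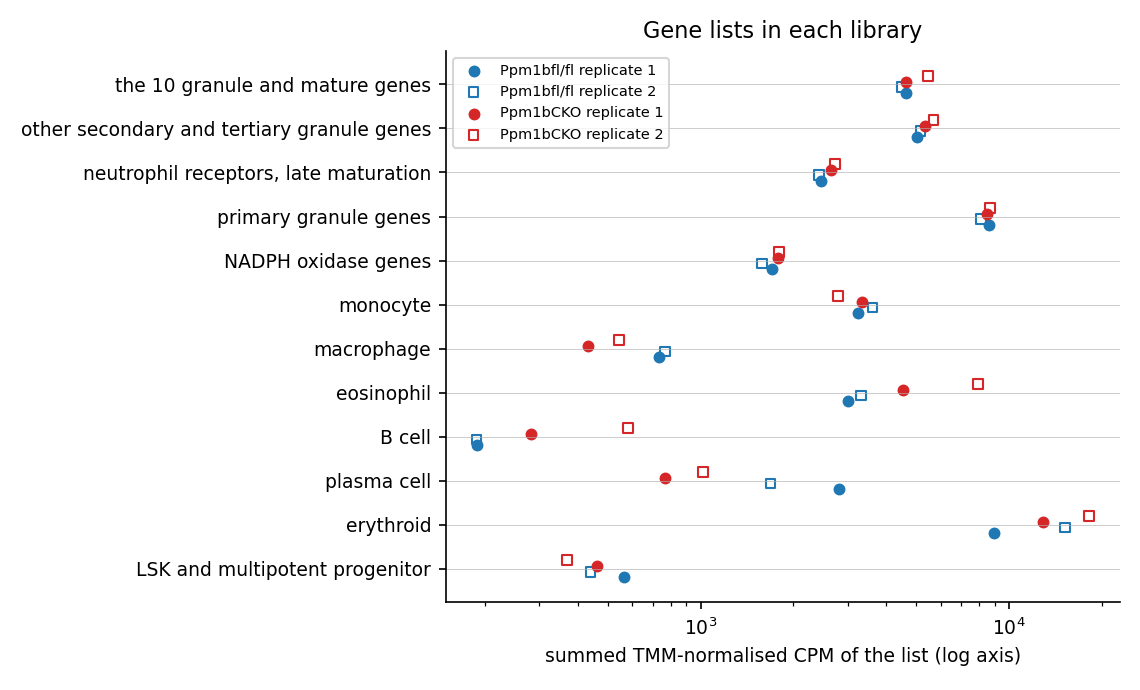
Summed TMM-normalised CPM (log axis) of gene lists in the 4 libraries, blue for Ppm1bfl/fl and red for Ppm1bCKO, filled circles for replicate 1 and open squares for replicate 2. The 10 granule and mature neutrophil genes sit between 4482 and 5449 CPM, whereas the eosinophil markers spread from 3006 to 7952 CPM.

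The mean profile of the 10 genes over the 4 libraries was nearly level, highest in Ppm1bCKO replicate 2. Single genes departed from it in both directions. In Ppm1bCKO replicate 2, log2 CPM centred on the mean of the gene was 0.52 for Retnlg and -0.33 for Mmp8. By root mean square distance of centred log2 CPM, over 8519 genes with an average log2 CPM of at least 4, the nearest genes outside the 10 were Emc3, Vps45, Kifc1, Aifm1 and Tm9sf2, at 0.0067 to 0.011. All 5 were nearly level, with log2 fold changes from 0.044 to 0.079. Of the 10 genes themselves Lcn2 lay nearest to the mean profile, at 0.038, and Retnlg farthest, at 0.34.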

How the data were processed

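RNA had been extracted with TRIzol and libraries made with a TruSeq RNA kit, per the labels' protocols. The authors deposited raw whole-number counts per gene. Trim Galore 0.6.7, HISAT2 2.2.0, featureCounts 2.0.1 and build mm10 are named in the submitters' processing notes. The annotation release, strand setting and treatment of multi-mapping reads are not named there or in the labels. Of 55399 identifiers, 55139 matched GENCODE M21, which has the spans of the 10 genes as deposited.

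Counts were tested with edgeR 4.0.16 (R 4.3.3): filterByExpr (minimum count 10, minimum total 15), TMM, robust quasi-likelihood fit by genotype without covariates, and Benjamini-Hochberg adjustment over 16393 genes at 0.05. The ± after a log2 fold change is its standard error, the log2 fold change over the square root of F, and intervals use the test's degrees of freedom. Alternatives used limma 3.58.1, DESeq2 1.42.0, other filters, no immunoglobulin genes, a replicate block, each library left out, and removal of each library's lowess trend (span 0.3) with gene length. On simulated counts of 15978 genes for this comparison, 57 of 100 genes with a 2-fold change were called by edgeR. Of 100 with a 4-fold change it called 99, and it made 3 wrong calls among the rest. The simulated libraries held no gene-length trend and no gene-specific dispersion, so these rates need not hold for the real libraries.

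The 10 genes and all lists were chosen with earlier results of these data known. Named were the 10 genes, Ppm1b, up to 4 genes of highest mean CPM per list, list genes passing the test, and the 5 genes nearest to the mean profile. Other names were chosen after their values were seen. The planned comparison of protein sequences was not made.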

Additional observations from a re-analysis of the deposited data

How the results depend on the processing

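Of the 10 genes edgeR called 0, and so did DESeq2 size factors, limma-voom, the CPM minimum, the fits without immunoglobulin genes and without the length trend, and the replicate block. DESeq2 called 1 and edgeR with no low-count filter 1, Retnlg in both. With each library left out in turn the count ran from 0 to 3, and the 3 came without Ppm1bCKO replicate 1. Over all genes edgeR called 61, against 199 by DESeq2, 311 with no filter, 0 without immunoglobulin genes, and 94 to 3336 with a library left out. Leaving out a library moved the log2 fold change of S100a8 from -0.10 to 0.42, of Ltf from -0.076 to 0.065, of Camp from -0.36 to 0.38, of Ngp from -0.059 to 0.12, of Lcn2 from -0.078 to 0.090, of Mmp8 from -0.43 to 0.048 and of Cxcr2 from -0.43 to 0.077, so the sign of these 7 rests on single libraries. Those of S100a9, Mmp9 and Retnlg kept their sign in all 12 alternatives. Without the length trend Camp, Ngp and Lcn2 turned to -0.14, -0.14 and -0.076. The numbers 1 and 2 were not shown to pair the libraries (correlation of same-number deviations 0.064). With the replicate block edgeR called 207 genes in all, among them 5 eosinophil, 4 B cell, 4 macrophage, 3 plasmacytoid dendritic cell and 2 plasma cell markers, and Retnlg had 0.73 (adjusted p = 0.0779). The replicates differed by more than counting noise (chi-square per degree of freedom over genes 22.9 for Ppm1bfl/fl and 47.8 for Ppm1bCKO), and 2 libraries per genotype with a biological coefficient of variation of 19.1% limit the precision.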

Other observations

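The S100 family of small calcium-binding proteins includes the calprotectin genes. Of 16 family members chosen for the list 9 were tested, S100a8 and S100a9 included. All 9 had a positive log2 fold change (median 0.32, 3 at an unadjusted edgeR p under 0.05, 0 called by edgeR, limma-voom or DESeq2). S100a10, a partner of annexin A2, stood at 125 and 107 CPM in Ppm1bfl/fl against 143 and 198 CPM in Ppm1bCKO (0.55 ± 0.20, edgeR adjusted p = 0.717), and S100a11 at 182 and 170 CPM and at 190 and 251 CPM (0.32 ± 0.18). The median was 0.18 with the length trend removed, where all 9 stayed positive, and 0.13 without Ppm1bCKO replicate 2, where 7 did. Without Ppm1bCKO replicate 1, where edgeR called 19.4% of all genes, it called 6 of the 9, and the median was 0.52.

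The matrix metalloproteinases are secreted or membrane-bound enzymes that cut matrix proteins. Of 14 members chosen for the list, not the whole family, 12 were tested, Mmp8 and Mmp9 included. Among these 12, 9 had a negative log2 fold change (median -0.24, 0 at an unadjusted edgeR p under 0.05, 0 called by edgeR, limma-voom or DESeq2). Mmp14, for a membrane-bound collagenase, stood at 49.4 and 57.6 CPM in Ppm1bfl/fl against 44.9 and 36.9 CPM in Ppm1bCKO (-0.39 ± 0.18). Mmp25, for the membrane proteinase of leukocytes, stood at 29.1 and 31.6 CPM and at 27.1 and 24.5 CPM (-0.24 ± 0.18). With the length trend removed 10 of the 12 were negative, with a median of -0.26. Without Ppm1bCKO replicate 2 there were 7, with a median of -0.14. Without Ppm1bCKO replicate 1 all 12 were negative and edgeR called 1, below the 19.4% of all genes called in that fit.

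Csf3r, which encodes the G-CSF receptor and was picked with its values in view, stood at 178 and 191 CPM in Ppm1bfl/fl against 151 and 118 CPM in Ppm1bCKO (-0.46 ± 0.18, edgeR unadjusted p = 0.0323, adjusted p = 0.717). Itgam, for the CD11b integrin chain and also picked with its values in view, had the opposite sign, at 55.8 and 52.9 CPM and at 67.1 and 86.8 CPM (0.50 ± 0.18, edgeR unadjusted p = 0.0238, adjusted p = 0.717).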
